A study of Gossypium hirsutum with 17 samples.

Results

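Whole cotton seedlings raised on 1 μM abscisic acid (ABA) were compared directly with seedlings raised at pH 11, on the Affymetrix Cotton Genome Array. All 3 arrays of the ABA treatment and both arrays of the alkalinity treatment were used, which makes 5 of the 17 arrays of the series. The plants were upland cotton of the same cultivar, germinated for 4 days on half-strength MS medium at 25°C with 12 h of light. The ABA seedlings then stood for 10 days on half-strength MS with 1 μM ABA at pH 5.8, and the pH seedlings for 10 days on half-strength MS at pH 11 with no ABA added. All were harvested 14 days after germination, so the groups differed both in the hormone and in the pH of the medium. No array of seedlings grown with ABA at pH 11 was among those given, and the part of each factor in a difference cannot be told apart. A whole seedling holds cotyledons, hypocotyl and root, and in such bulk RNA fewer cells of a type and less RNA per cell cannot be told apart.

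ABA is the hormone that rises in plants short of water. Its receptors inhibit protein phosphatases of type PP2C when ABA is bound, which frees SnRK2 kinases to phosphorylate transcription factors, and these switch on dehydrins and other late embryogenesis abundant (LEA) proteins. A medium of high pH acts from outside the root: it lowers the solubility of iron and phosphate, weakens the proton gradient that drives ion uptake, and hinders the acid-driven loosening of the cell wall. Calcium sensors, WRKY factors and ethylene response factors (ERFs) are among the regulators that plants use under many stresses.

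The deposited values are MAS5 signals, 1 for each probe set, and all 5 arrays had been scaled to the same trimmed mean of 500.1. The log2 signals were quantile normalised over the 5 arrays, and each level below is on this log2 scale, on which 1 unit is a 2-fold difference and the median over all probe sets was 7.40. Correlation across probe sets was 0.947 to 0.956 between ABA arrays, 0.950 between the 2 pH arrays and 0.915 to 0.928 between an ABA and a pH array. The first principal component held 45.2% of the variance and put the ABA arrays at -67.6 to -41.2 and the pH arrays at 75.7 and 90.8. The actin 3′ to 5′ log2 ratio, which rises as RNA is degraded, was 4.46 to 5.31 in ABA and 4.45 to 4.46 in pH, and its part in the differences was not tested. Of the green tissue proteins searched for, a single probe set was named, that of the photosystem II 44 kDa protein, at 8.27 to 8.77 in ABA and at 9.96 and 8.17 in pH.

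In limma, 379 of 24029 probe sets, or 1.58%, passed both limits set for a call, a 2-fold difference and a p of 0.05 after adjustment by the Benjamini-Hochberg method. Of these, 195 were higher in ABA (0.812%) and 184 were higher in pH (0.766%). The ABA and pH arrays did not overlap for any of the 379. Overlap was also absent for 45.5% of all probe sets, 22.7% higher in ABA and 22.8% higher in pH, so this property alone sets few apart. The median size of the difference among the 379 was 2.18 on the log2 scale, and 62 differed by 10-fold or more. Of the 379, 337 had an adjusted p above 0.04, and only 1 call was made when any 1 of the 5 arrays was left out, each time the same probe set. A SAM-type permutation test called 20. When the 3 mannitol arrays, deposited at the same trimmed mean, were added so that the spread was estimated from 8 arrays, 2191 probe sets passed (9.12%), 1019 higher in ABA (4.24%) and 1172 higher in pH (4.88%), and 373 of the 379 were among them. Without any 1 of the ABA or pH arrays, the 8-array fit made 1226 to 2375 calls. Below, "passed" without more refers to the fit to the 5 arrays, and the 8-array fit is named where its call is given.

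**Figure D1:**
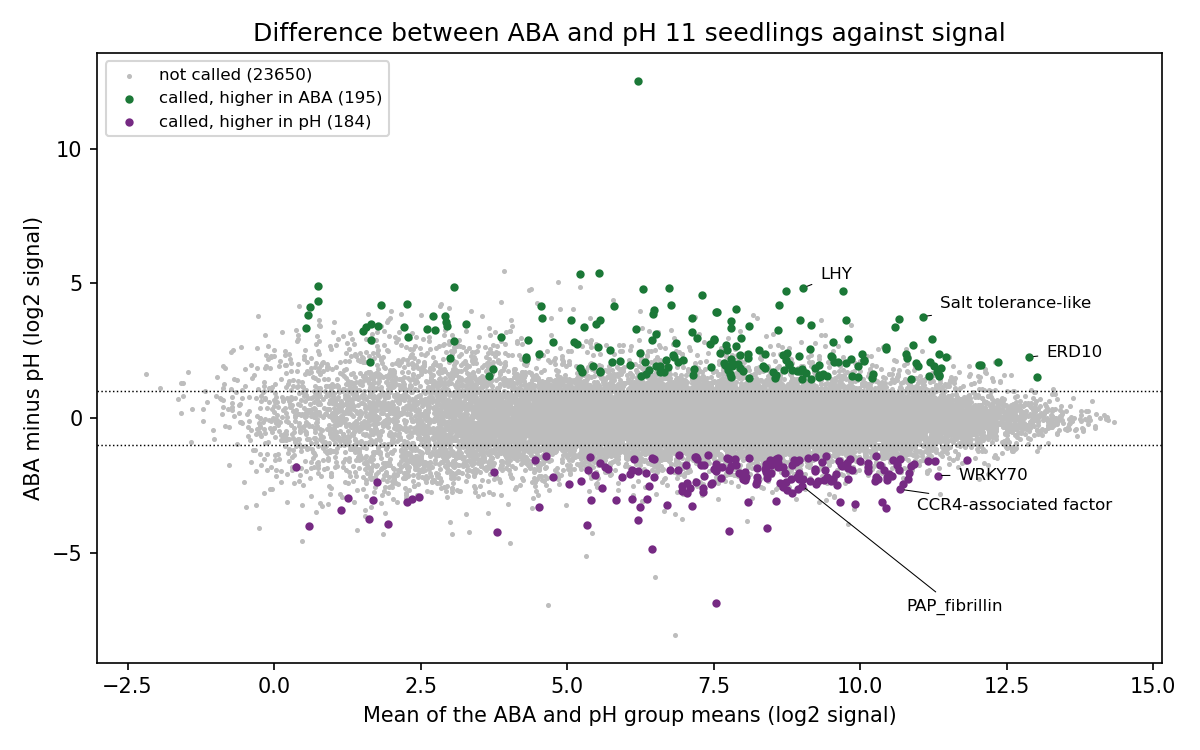
Difference between ABA and pH seedlings (log2 signal, vertical axis) against the mean of both group means (log2 signal, horizontal axis) for all 24029 probe sets. Green points are the 195 called higher in ABA and purple points the 184 called higher in pH, the dotted lines mark a 2-fold difference, and for 287 of the 379 calls the higher group mean lay above the median signal.

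A usable gene name was at hand for 960 of the probe sets, and 636 of those were named through tables that the study had selected on these same arrays, 366 of them only as raised by ABA against the control. Counts over named lists therefore are not independent evidence of a direction. They are to be read against the shares of all probe sets just given and against the median difference over all of them, -0.01. Of the 379 that passed, 22 were named, 12 higher in ABA and 10 higher in pH, and 357 were not.

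The circadian clock, a loop of factors that repress each other through the day, held the widest gap among the named probe sets. Late elongated hypocotyl (LHY), a MYB factor that represses evening genes at dawn in Arabidopsis, stood at 11.49, 11.67 and 11.19 in the ABA arrays and at 6.58 and 6.64 in the pH arrays. Both pH arrays lay below every ABA array, and the difference was 4.84 ± 0.23 (SE, 3 and 2 arrays), or 28.5-fold (limma adjusted p = 0.0233). In the normalisation of all 17 arrays LHY averaged 11.10 in the control, 10.27 in ABA, 5.30 in pH, 4.86 in mannitol and 5.43 in cold. The low level was thus not limited to pH. In the NaCl seedlings the arrays were far apart, at 11.51, 5.42 and 10.87. Clock transcripts cycle through the day, and the hour of harvest is not given in the sources used here.

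A probe set for the pseudo-response regulator APRR7, which represses LHY in Arabidopsis, was also higher in ABA, at 10.97, 11.31 and 11.15 against 9.11 and 8.90, a difference of 2.14 ± 0.21 (adjusted p = 0.0423). The other APRR7 probe sets had higher means in pH. One of them stood at 8.64, 8.19 and 8.20 in ABA and at 9.48 and 9.31 in pH, with an adjusted p of 0.0891 in the 5 arrays and 0.0181 in the 8-array fit, and Ghi.3554.1.A1_at differed by -0.95 (adjusted p = 0.299), with overlap. Upland cotton is an allotetraploid with paired copies of most genes, and the names do not say which copy a probe set reads. Gigantea (GI), an evening-phased clock protein, measured 8.97, 8.82 and 7.50 in ABA and 6.76 and 5.86 in pH, which did not pass (adjusted p = 0.112). The clock list also counts CCR-like, a name that the study's text gives to a cinnamoyl-CoA reductase, an enzyme of lignin synthesis. Whether this probe set reads a clock-controlled transcript cannot be told from the name. CCR-like measured 5.98, 6.92 and 6.67 in ABA and 7.75 and 8.46 in pH. It passed as higher in pH only in the 8-array fit (adjusted p = 0.0321). Of the 7 probe sets of the clock list, 2 passed as higher in ABA and none as higher in pH, and in the 8-array fit 3 and 2 did (without single arrays 2 to 3 and 0 to 1).

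**Figure D2:**
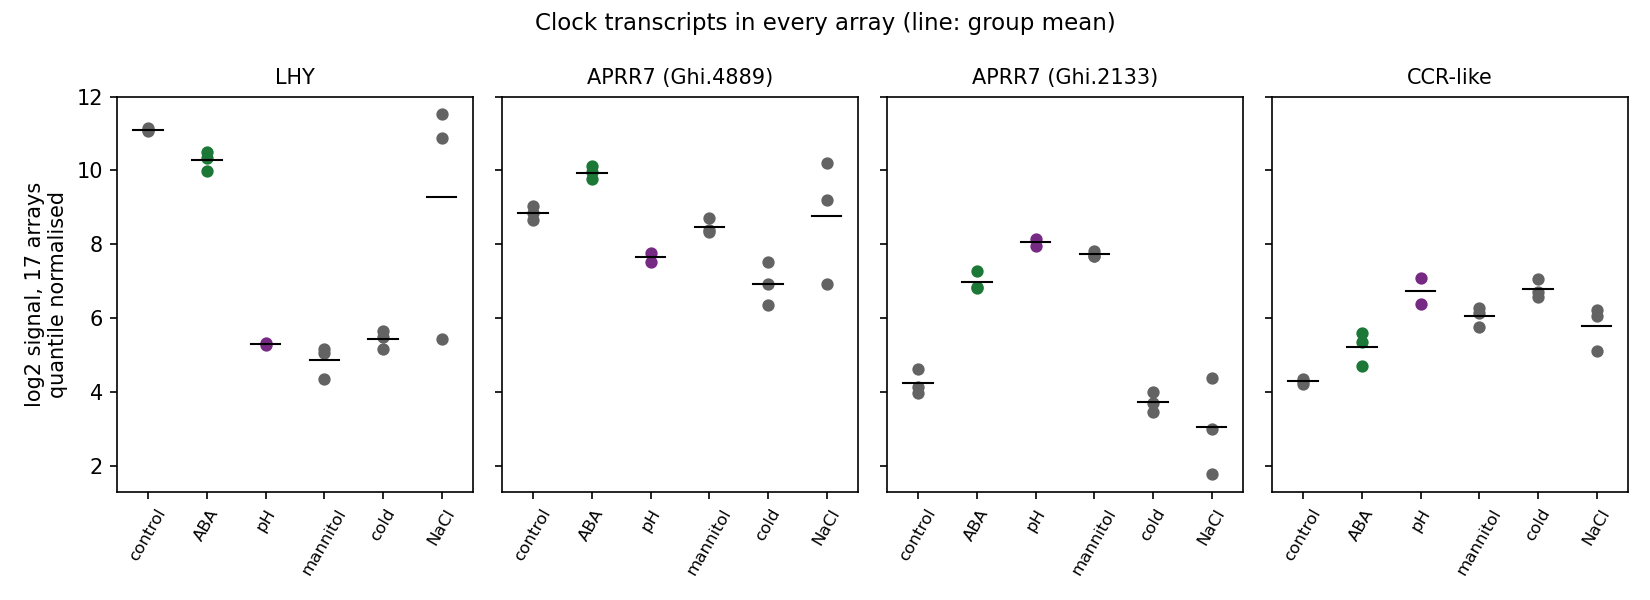
Log2 signals, quantile normalised over all 17 arrays, of LHY, of both APRR7 probe sets that passed in at least the 8-array fit and of CCR-like, with each array as a point and the group mean as a line. LHY averaged 10.27 in ABA and 5.30 in pH, while the APRR7 probe set of the third panel and CCR-like lay higher in pH than in ABA. CCR-like is drawn as a member of the clock list, while the study reads the name as a cinnamoyl-CoA reductase.

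A pair of transcripts linked to light signalling also passed as higher in ABA. The probe set of Salt tolerance-like protein, whose Arabidopsis namesake is a B-box zinc finger protein of light signalling, gave 13.01, 12.84 and 13.03 in ABA and 8.90 and 9.48 in pH. It was 13.6-fold higher in ABA (log2 difference 3.77 ± 0.25, adjusted p = 0.0289), with no overlap between the groups. Its mean in the 17-array scale was 12.14 in the control and 8.68 in mannitol. Root phototropism protein 2, which acts with the blue light receptor phototropin in Arabidopsis, gave 9.13, 9.24 and 9.54 in ABA and 7.58 and 7.19 in pH (3.78-fold, adjusted p = 0.0478). On the 17-array scale it averaged 9.02 in the control, 7.95 in ABA, 6.03 in pH and 5.65 in mannitol. Another B-box type zinc finger transcript (Ghi.1165.1.A1_s_at) stood at 9.86, 9.98 and 10.13 against 6.38 and 8.35. Its pH arrays lay far apart, and it did not pass (adjusted p = 0.0909).

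Among the targets of ABA, the dehydrin ERD10, which protects proteins and membranes in drying cells, passed. It measured 14.40, 14.06 and 13.62 in ABA and 11.82 and 11.69 in pH, a 4.82-fold difference (2.27 ± 0.29, adjusted p = 0.0478), while its mean in the 17-array scale was 11.40 in the control and 11.17 in mannitol. The other members of the list of LEA proteins, dehydrins and seed reserves did not pass. Lea14-A, a LEA protein, ranged from 11.85 to 13.81 in ABA, above the 11.30 and 11.32 of the pH arrays, but its ABA arrays were widely spread (adjusted p = 0.181). Lea5-D was at 13.76 to 13.93 in ABA and at 14.18 and 14.11 in pH (adjusted p = 0.413). SAG21, a LEA-type protein of senescing leaves, was at 13.21 to 13.87 and at 13.25 and 13.27, and the groups overlapped. The dormancy-associated protein was at 11.60 to 11.80 and at 10.94 and 11.28 (adjusted p = 0.172).

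None of the 20 probe sets of ABA signalling, all of them in tables of the study, passed, and their median difference was -0.06 against -0.01 for all probe sets, with 10 above and 10 below 0. The median lay between -0.47 and 0.14 across the alternatives. In the 8-array fit 1 was higher in ABA and 2 were higher in pH (without single arrays 1 to 2 and 0 to 2). In the fit to all 8 arrays, all 3 were named G-box binding factor 6, a bZIP factor. The list was drawn by name patterns, and this name alone does not place the factor in ABA signalling. Ghi.5981.1.S1_at was at 7.04, 7.32 and 7.34 in ABA and at 6.14 and 6.16 in pH, whereas Ghi.5630.1.S1_s_at was at 7.37, 7.98 and 8.55 in ABA and at 10.40 and 9.85 in pH. Probe sets of the same name thus went in opposite directions. A protein phosphatase of type 2C (Ghi.3685.1.S1_at) was at 6.33 to 7.15 in ABA and at 7.60 and 7.99 in pH (adjusted p = 0.126). Its name does not say whether it is among those that act on SnRK2 kinases.

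Cell wall transcripts contributed 2 calls, both higher in ABA and both annotated as the expansins EXPA4 and EXPA13D, proteins that loosen the wall during growth. The annotation does not separate these genes. Ghi.704.1.S1_at measured 9.16, 9.55 and 9.12 in ABA and 7.01 and 6.79 in pH (5.20-fold, adjusted p = 0.0417), and Ghi.704.1.A1_s_at was 4.20-fold higher (adjusted p = 0.0478). On the 17-array scale Ghi.704.1.S1_at averaged 8.49 in the control, 7.92 in ABA, 5.56 in pH and 6.79 in mannitol. Ghi.704.1.A1_s_at averaged 9.82, 9.33, 7.14 and 8.81 in the same order. A further probe set with the same annotation, GhiAffx.26845.1.S1_at, was lower in ABA, at 7.32 to 7.46 against 8.55 and 8.76, and passed only in the 8-array fit (adjusted p = 0.0195). The fasciclin-like arabinogalactan protein FLA6, a cell surface glycoprotein, stood at 10.97, 11.01 and 11.15 in ABA and at 9.43 and 8.45 in pH (Ghi.4418.2.S1_s_at, adjusted p = 0.0600, and 0.00838 in the 8-array fit). Across the 36 members of the list the median difference was 0.22, and in the 8-array fit 7 were higher in ABA and 3 were higher in pH (without single arrays 3 to 10 and 0 to 6).

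Among 24 cytoskeleton probe sets, the only one to pass was a microtubule motor (Ghi.8865.1.S1_at), at 7.67 to 7.91 in ABA and at 9.23 and 9.39 in pH (adjusted p = 0.0490). On the 17-array scale this motor averaged 3.67 in the control, 6.44 in ABA, 7.95 in pH and 7.26 in mannitol. The 8-array fit kept it and added 5 that were higher in ABA, and without single arrays 1 to 7 were higher in ABA (1 without pH replicate 2) and 1 to 2 were higher in pH. Among them were the kinesin FRA1 (FRAGILE FIBER 1), which is needed for ordered cellulose deposition in Arabidopsis fibres, at 7.14 to 8.14 in ABA against 5.75 and 6.01 in pH (8-array adjusted p = 0.0167), actin ACT11 at 7.41 to 7.84 against 6.26 and 5.99 (0.00822), and the beta-tubulin BTub4 at 10.22 to 10.62 against 9.46 and 9.14 (0.0169). For each of the 3 the lowest ABA array lay above the higher pH array, as it did for 22.7% of all probe sets.

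Starch breakdown was represented by SEX1, the glucan, water dikinase that phosphorylates starch before it is degraded. Its probe set Gra.1742.1.A1_s_at stood at 10.43, 10.13 and 10.01 in ABA and at 8.51 and 8.60 in pH (3.10-fold, adjusted p = 0.0494), and a second one, Ghi.1441.1.S1_s_at, at 12.91, 12.80 and 12.40 against 11.20 and 10.91 (3.13-fold, adjusted p = 0.0561). On the 17-array scale Gra.1742.1.A1_s_at averaged 4.46 in the control, 8.90 in ABA, 7.19 in pH and 7.67 in mannitol. The starch branching enzyme SBE2.2, which builds starch, was at 5.32 to 5.91 in ABA and at 7.34 and 6.65 in pH and passed only in the 8-array fit (adjusted p = 0.0266). In the list of 15 starch and sugar probe sets, 1 passed in the 5 arrays, and 3 higher in ABA and 1 higher in pH in the 8-array fit (without single arrays 2 to 4 and 0 to 2).

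The remaining named calls higher in ABA were CBP2, at 13.14 to 13.59 in ABA against 11.07 and 11.54 in pH (4.28-fold, adjusted p = 0.0475), an anion exchanger at 9.12 to 9.56 against 7.57 and 7.32 (3.60-fold, adjusted p = 0.0478), a WD-40 repeat protein at 10.66 to 10.81 against 9.12 and 9.28 (2.90-fold, adjusted p = 0.0475), and ACS. ACS is the symbol of the enzyme that makes the precursor of ethylene. This probe set had group means of 4.71 and 1.15, both below the median signal (adjusted p = 0.0432), and 3 further probe sets with the symbol differed by -1.34 to 1.21 and did not pass. On the 17-array scale CBP2 averaged 13.06 in the control, 12.45 in ABA, 10.11 in pH and 10.97 in mannitol. In the same order, the anion exchanger averaged 6.41, 7.94, 6.08 and 7.14, and the WD-40 repeat protein 7.84, 9.49, 7.84 and 8.55. Of the auxin genes, GH3.1, which belongs to a family that conjugates auxin to amino acids, was at 8.69 to 9.60 in ABA and at 7.21 and 7.07 in pH, and ARF6, an auxin response factor, at 9.74 to 10.30 against 8.73 and 8.70. Both passed only in the 8-array fit (adjusted p = 0.0118 and 0.0150). The median over 22 auxin, gibberellin and jasmonate probe sets was 0.55, with 16 above 0. Of the 22, 3 were higher in ABA and 1 was higher in pH in the 8-array fit (without single arrays 0 to 5 and 0 to 1).

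Among transcription factors, the calls higher in pH lay in the WRKY and AP2/ERF families, which bind short promoter motifs of stress and defence genes. WRKY70, which in Arabidopsis balances salicylate and jasmonate defences, was at 10.35, 10.39 and 10.03 in ABA and at 12.29 and 12.48 in pH, a 4.37-fold difference (-2.13 ± 0.22, adjusted p = 0.0431). Its 17-array means were 8.67 in the control, 8.98 in ABA, 11.29 in pH, 10.76 in mannitol, 11.22 in cold and 9.48 in NaCl. The NaCl arrays were far apart, at 8.54, 11.43 and 8.49, so their mean describes none of them. No other WRKY probe set passed in the 5 arrays. Of the 33, 27 lay below 0, with a median of -0.90, while over all probe sets 12111 of 24029 lay below 0. In the 8-array fit 7 were higher in pH and 2 higher in ABA, and without single arrays 1 to 7 and 0 to 2 were. The 33 probe sets carry 21 different names, and 32 of them stand in tables that the study drew from these arrays.

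WRKY40, a repressor of ABA responses in Arabidopsis, was at 11.27, 11.02 and 10.74 in ABA and at 12.18 and 12.49 in pH on Ghi.10061.1.S1_s_at (8-array adjusted p = 0.0188). WRKY33, a regulator of camalexin synthesis in Arabidopsis, had a group mean of 10.78 in ABA and 12.58 in pH on Ghi.9240.1.S1_s_at (adjusted p = 0.101). WRKY31 went the other way, at 8.02, 7.42 and 6.99 in ABA and at 5.31 and 5.47 in pH on Ghi.3273.1.A1_at (adjusted p = 0.0615, and 0.0180 in the 8-array fit). Its other probe sets, Ghi.9182.4.S1_at and Ghi.9182.3.S1_at, differed by -0.31 and -0.42 (adjusted p = 0.579 and 0.634). Members of the family thus lay on both sides of 0.

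ERF105 (Ghi.9175.1.S1_at), an ethylene response factor, was at 8.99, 9.37 and 9.21 in ABA and at 11.12 and 11.61 in pH, 4.51-fold higher in pH (adjusted p = 0.0447). On the 17-array scale it averaged 7.89 in the control, 7.83 in ABA, 10.18 in pH, 9.67 in mannitol, 10.07 in cold and 8.31 in NaCl. In the single NaCl arrays it was at 7.71, 9.78 and 7.44, again far apart. It was the only AP2/ERF probe set of 36 to pass. In the 8-array fit 10 were higher in pH and 1 was higher in ABA, and without single arrays 1 to 8 and 0 to 1 were. ERF5 was among them, at 7.89, 8.70 and 8.86 in ABA and at 10.33 and 11.02 in pH (Ghi.8749.1.S1_at, 8-array adjusted p = 0.0127), and RAP2-4 was the exception, at 5.31 to 5.95 in ABA and 4.23 and 4.42 in pH. The list median was -0.32 (-0.66 to -0.02 across the alternatives), with 19 of 36 below 0. By fold alone, with no limit on p, 13 were at least 2-fold higher in pH against 3 in ABA. Over all 24029 probe sets, 2478 were at least 2-fold higher in pH and 2359 in ABA. Of the 36, 32 stand in the study's tables. CBF15, also named DBP2, a DRE-binding factor, was at 11.70 to 12.60 in ABA and at 11.74 and 12.18 in pH, and the groups overlapped.

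None of 14 NAC, 31 MYB and 30 zinc finger probe sets passed in the 5 arrays. LHY and Salt tolerance-like protein, described above, are not members of these lists. In the 8-array fit, 2 NAC, 6 MYB and 4 zinc finger probe sets were higher in pH and 1, 1 and 4 were higher in ABA. Without single arrays, 1 to 2 NAC, 1 to 6 MYB and 0 to 3 zinc finger probe sets were higher in pH, and 0 to 1, 0 to 1 and 0 to 3 were higher in ABA. ANAC036 was at 5.57 to 5.98 in ABA and at 7.42 and 8.53 in pH (8-array adjusted p = 0.0130), while NAC7 was at 7.45 to 8.40 in ABA and at 6.36 and 6.10 in pH (0.0182). The CCCH zinc finger protein 29, of a class that binds RNA, was at 9.64 to 10.44 in ABA and at 11.89 and 12.45 in pH on Ghi.9149.4.A1_s_at (0.0162), and MYB73 at 9.05 to 9.90 against 10.79 and 11.46 (0.0172).

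Calcium signalling gave 2 calls among 21 probe sets, both higher in pH. A putative calcium-dependent protein kinase (Ghi.9336.3.S1_at), an enzyme that couples a calcium sensor to a kinase in the same protein, was at 7.25, 7.36 and 7.69 in ABA and at 9.53 and 9.10 in pH (3.68-fold, adjusted p = 0.0494). A calmodulin-binding protein (Ghi.4791.2.S1_at) was at 6.68, 6.52 and 6.34 against 8.50 and 8.99 (4.70-fold, adjusted p = 0.0432). The 17-array means in the control were 3.67 and 3.36, below those of ABA (6.07 and 5.20) and pH (7.96 and 7.38). Those in mannitol, 7.43 and 6.26, lay between ABA and pH. Of the 21, 4 were higher in pH and 0 in ABA in the 8-array fit (without single arrays 2 to 3 and 0 to 2). The median over the list was 0.14, with 14 of 21 above 0, and lay between -0.05 and 0.21 across the alternatives. The MAP kinase MPK3 was read by 7 probe sets, 1 of them shared with MPK6, and none passed. Their ABA means lay 0.05 to 1.28 below the pH means, and on Ghi.7954.1.S1_s_at the ABA arrays spread from 10.34 to 12.08 and overlapped the pH values of 11.95 and 12.72, of which only the lower lay within them.

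No flavonoid transcript passed in the 5 arrays, but 10 of 12 phenylpropanoid and flavonoid probe sets lay below 0 (median -0.85), and 4 were higher in pH in the 8-array fit. Dihydroflavonol reductase (DFR), which opens the branch to anthocyanins, was at 9.01, 9.19 and 9.74 in ABA and at 11.06 and 11.56 in pH (3.98-fold, adjusted p = 0.0599, and 0.00826 in the 8-array fit). The other 3 probe sets were named as chalcone synthases, the first enzyme of flavonoid synthesis. CHS6 was at 2.17 to 3.79 in ABA and at 5.32 and 5.55 in pH, and CHS2 at 2.81 to 3.90 against 5.34 and 5.51 on Ghi.10134.2.A1_s_at and at 6.52 to 7.08 against 8.06 and 8.11 on Ghi.10134.3.S1_s_at. The values of CHS6 and of the former CHS2 probe set lie under the median signal, and a pair of further CHS2 probe sets did not pass. Without single arrays, 1 to 4 of the list passed as higher in pH in the 8-array fit.

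In the photosynthesis and chloroplast list 1 of 7 probe sets passed, as higher in pH. The PAP_fibrillin probe set that passed, for a protein that coats lipid droplets in plastids, was at 7.49, 7.84 and 7.94 in ABA and at 10.07 and 10.45 in pH (5.68-fold, adjusted p = 0.0423). On the 17-array scale it averaged 5.38 in the control, 6.39 in ABA, 8.98 in pH and 8.16 in mannitol. All 7 members of the photosynthesis and chloroplast list lay below 0 (median -1.12), and 4 passed in the 8-array fit, where 1 to 2 were left without single arrays. They included an electron carrier that binds iron, at 7.91 to 9.37 in ABA and at 10.40 and 11.19 in pH (8-array adjusted p = 0.0348). Chlororespiratory reduction 3, needed for the chloroplast NDH complex in Arabidopsis, was at 7.39 to 8.14 against 8.54 and 9.32, and the groups did not overlap (adjusted p = 0.151). Of the 4, PAT1, a scarecrow-like factor of phytochrome signalling, and CCR-like, also counted in the clock list, are no photosynthesis proteins. The name of the electron carrier gives no location in the cell. The list was drawn by name patterns, so its count and median do not describe plastid transcripts as such. All 7 stand in the study's tables.

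The means of all 4 thiamine synthesis probe sets lay below those of pH, with differences of -1.23 to -0.74, and none passed in either fit. Putative thiamine biosynthesis protein was at 10.75, 11.55 and 10.83 in ABA and at 11.68 and 12.06 in pH on its brightest probe set, and thiazole biosynthetic enzyme, which makes the thiazole ring of vitamin B1, was at 10.79, 11.62 and 10.66 against 11.50 and 12.04, with overlap.

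The remaining named calls higher in pH were the CCR4-associated factor 1-11, a deadenylase that shortens the poly(A) tails of mRNA, at 8.89, 9.67 and 9.54 in ABA against 11.78 and 12.23 in pH (6.24-fold, adjusted p = 0.0470), CLP at 7.50 to 7.91 against 9.51 and 9.50 (3.48-fold, adjusted p = 0.0457), RXW8 at 8.07 to 8.30 against 9.83 and 9.66 (2.97-fold, adjusted p = 0.0478) and a putative polyprotein at 6.54 to 6.85 against 8.63 and 8.48 (3.53-fold, adjusted p = 0.0447). The CCR4-associated factor had the largest fold among the named probe sets higher in pH that passed. On the 17-array scale it averaged 8.04 in the control, 8.02 in ABA, 10.87 in pH and 10.51 in mannitol. In the same order CLP averaged 4.73, 6.34, 8.16 and 7.63, RXW8 5.55, 6.80, 8.42 and 7.60, and the polyprotein 3.11, 5.41, 7.18 and 6.84.

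**Figure D3:**
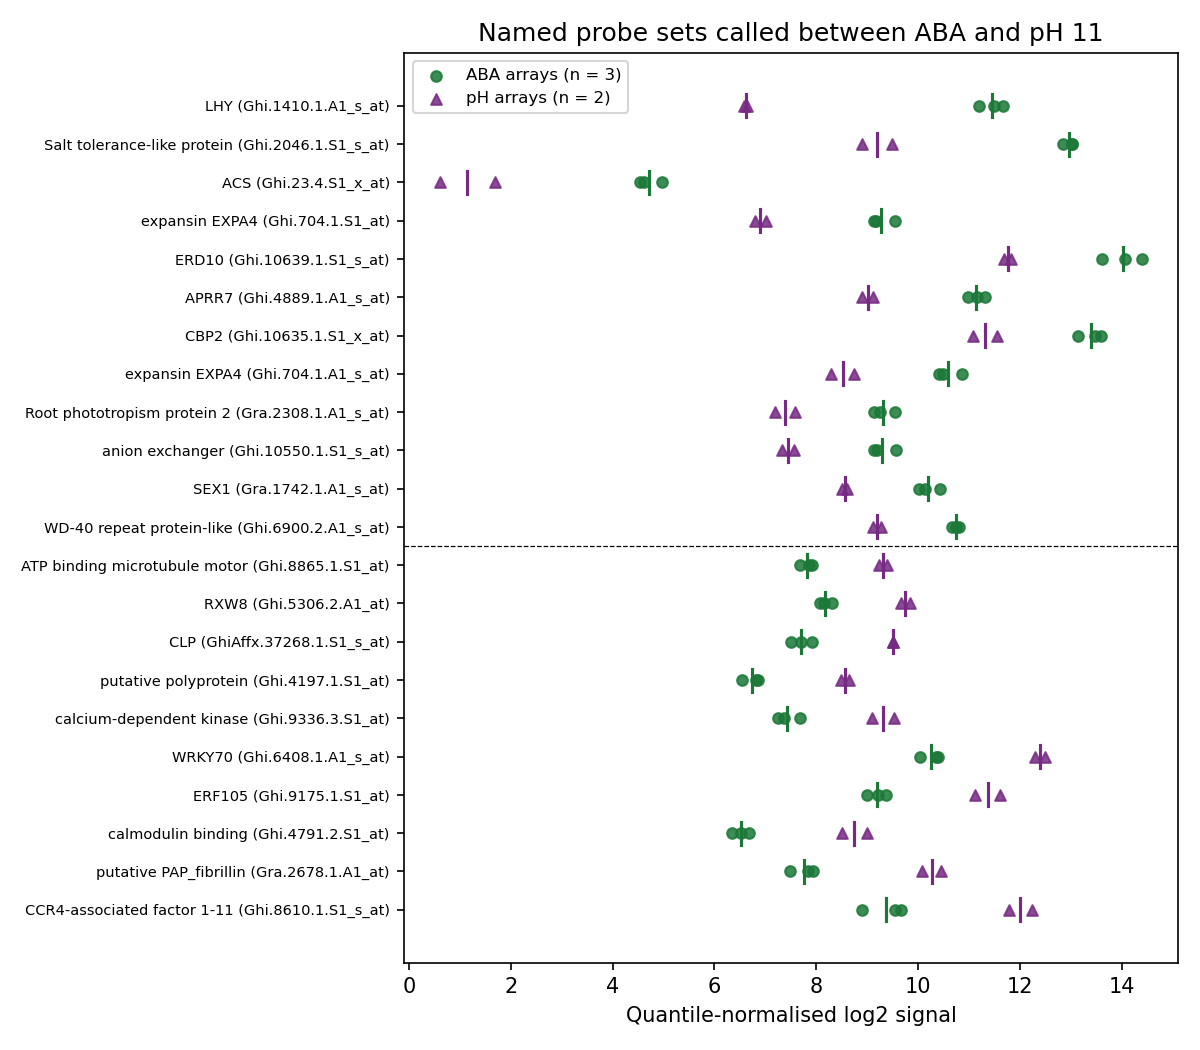
Quantile-normalised log2 signals (horizontal axis) of the 22 named probe sets that passed, with ABA arrays as green circles (n = 3), pH arrays as purple triangles (n = 2) and group means as vertical lines. The 12 above the dashed line were higher in ABA and the 10 below it higher in pH, and in none of the 22 do the groups overlap.

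Among all that passed, the widest differences belonged to probe sets without a name. Ghi.5768.1.S1_s_at was at 12.52, 12.52 and 12.39 in ABA and at -0.35 and 0.26 in pH (12.52 ± 0.25, adjusted p = 0.00131). It was high in all other conditions as well, at 7.74 to 11.38 over the 12 arrays that were neither ABA nor pH in the 17-array scale, and only the 2 pH arrays lay near the bottom of the scale. GhiAffx.60900.1.S1_at did the reverse, at 4.28, 4.18 and 3.90 in ABA and at 10.91 and 11.03 in pH (-6.85 ± 0.22, adjusted p = 0.00599), while its highest value among those 12 arrays was 6.59, in NaCl replicate 1. Ghi.5768.1.S1_s_at was the call that remained when any of the 5 arrays was left out. GhiAffx.21778.1.S1_at (5.39, higher in ABA, adjusted p = 0.0432) and Ghi.6429.1.S1_at (-4.85, higher in pH, adjusted p = 0.0470) followed, while the level of Ghi.6429.1.S1_at ranged from 2.98 to 4.95 over the ABA arrays.

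Several lists held no call in the 5 arrays. The medians were 0.17 for 21 ribosome and translation probe sets, 0.04 for 28 bZIP and bHLH factors, 0.19 for 20 of oxidative stress and 0.03 for 15 of defence. Pathogenesis-related PR1, a marker of salicylate defence, varied widely in ABA, at 7.87, 11.18 and 10.12 in ABA and at 11.93 and 11.33 in pH on Ghi.6433.1.S1_at (adjusted p = 0.305). Of 5 probe sets for proton pumps and potassium or sodium transport, the vacuolar sodium/proton antiporter NHX1 was at 11.47 to 11.94 and at 11.27 and 11.43 (difference 0.29 ± 0.24, adjusted p = 0.490), and the inward potassium channel KAT2 at 5.28 to 6.47 against 4.62 and 3.19 (adjusted p = 0.121). Iron and metal transport had 2 named probe sets, ZIP10 at 5.45 to 7.91 against 8.00 and 6.59 and copper transporter 1 at 10.42 to 11.81 against 10.67 and 11.82, both with overlap.

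**Figure D4:**
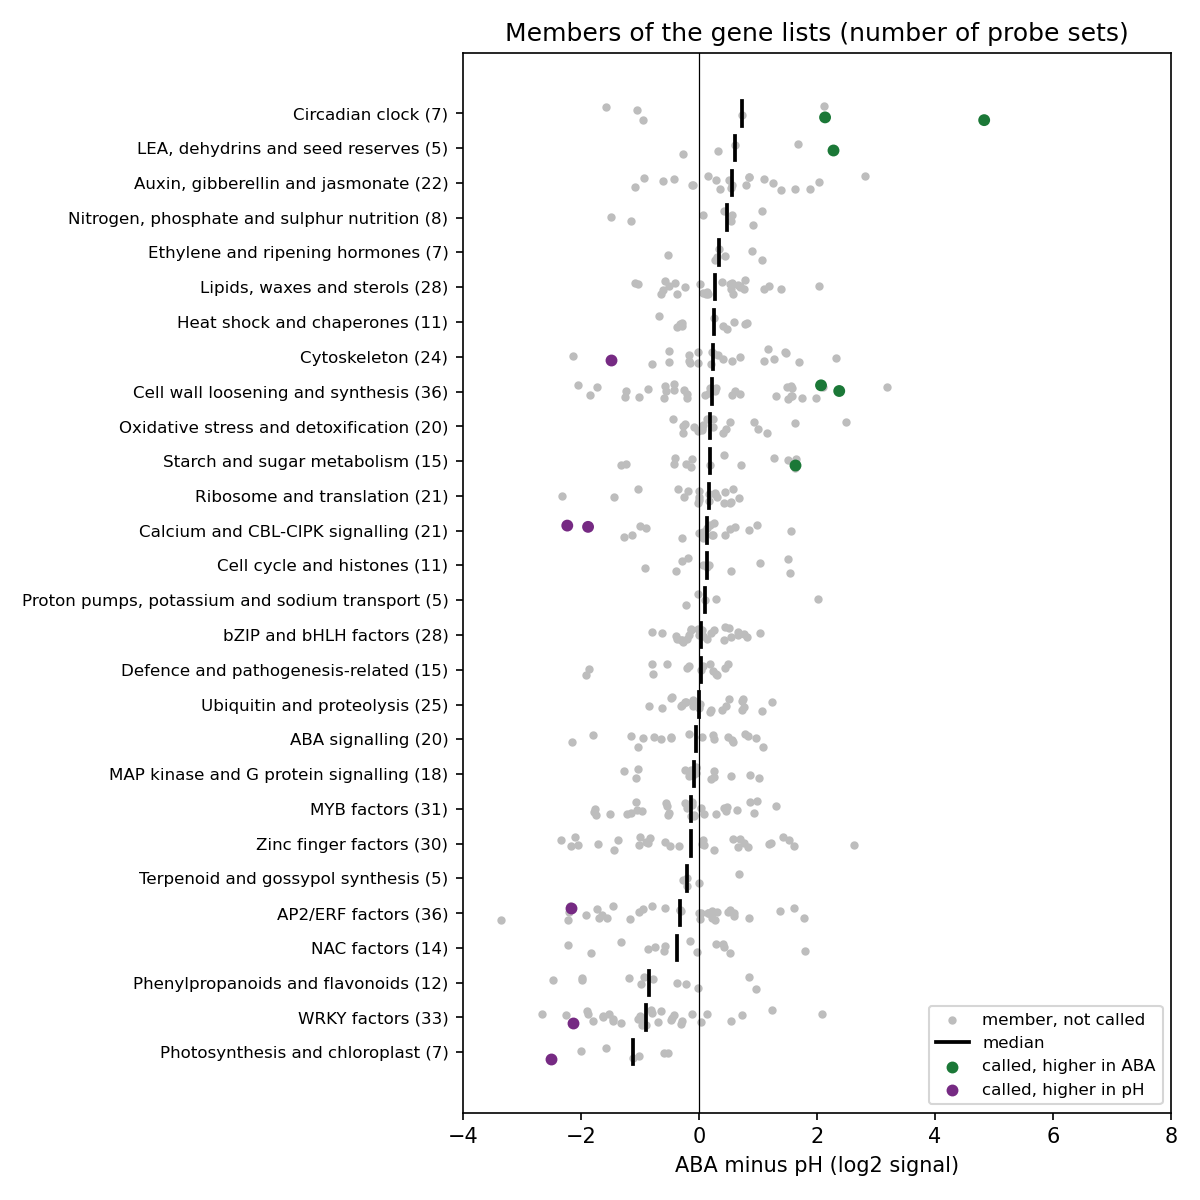
Difference between ABA and pH (log2 signal, horizontal axis) of every member of the lists with at least 5 probe sets, ordered by the list median (black bar), with members that passed in green (higher in ABA) or purple (higher in pH). The medians run from -1.12 for photosynthesis and chloroplast and -0.90 for WRKY factors to 0.73 for the circadian clock. The lists were drawn by name patterns, and that of photosynthesis and chloroplast also holds other proteins.

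Of the 9 transcripts that the study chose for quantitative PCR, none passed. The NAC factor annotated NAC5 and NAC8 was at 9.46 to 9.99 in ABA and at 10.10 and 10.42 in pH (adjusted p = 0.243). Nitrate transporter 1.4 was at 6.93 to 8.00 against 6.63 and 6.34 (0.216) and an HSP20 family protein at 6.84 to 7.14 against 5.88 and 6.49 (0.162). The groups overlapped in none of these, nor in chlororespiratory reduction 3 and the putative thiamine biosynthesis protein described above. Overlap was also absent for 45.5% of all probe sets. Alcohol dehydrogenase, pectinesterase 3, the scarecrow factor and the immediate-early salicylate-induced glucosyltransferase differed by 0.06 to 0.40, with overlap in each.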

How the data were processed

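RNA of whole seedlings was hybridised to Affymetrix Cotton Genome Arrays. The values used are the signal intensities that the authors deposited, made with MAS5 and linear. The deposit labels the arrays as biological replicates, whereas the study's methods state that RNA of several biological replicates was pooled, so SE and p describe the spread between arrays, which may be technical. The labelling protocol speaks of Cy3 and Cy5 pairs with the control, but the deposited table holds 1 signal per probe set and array. After 103 AFFX control probe sets had been set aside from 24132, the log2 signals were quantile normalised over the 5 arrays and fitted with limma 3.58.1 (lmFit and eBayes) in R 4.3.3, with no filter on signal. Probe sets passed at a 2-fold difference with an adjusted p (Benjamini-Hochberg, over all 24029) of 0.05 or less. The labels give no batch. The number of arrays limits the precision.

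Names came from the platform annotation, of whose 743 probe sets 697 were found in the RefSeq gene table and 324 had a usable symbol, and otherwise from the study's supplementary tables, 1 of which could be read only in part. No name was at hand for 23069 probe sets. The members and lists were chosen with earlier results of these data known. The probe sets described are, in each direction, up to 12 named ones with the widest differences among those that passed without overlap and above the median signal, up to 4 members per list with the smallest adjusted p and all of lists of up to 6, the transcripts of the study's text and PCR table, and 2 unnamed ones in each direction. GI, ACS, the B-box protein, WRKY33, the WRKY31 probe sets that overlapped and the APRR7 probe set that overlapped fall outside this rule and were chosen after their values were seen. Levels in other conditions come from quantile normalisation of all 17 arrays and were not tested. Alternatives were a SAM-type test over the 10 distinct permutations (the methods' test), other thresholds, fits to 8 or 17 arrays, no rescaling, median centring, an added offset of 32, a filter on the weakest 25% of signals, leaving out probe sets that match several transcripts, a variance trend, a replicate block and leaving out each array. The 8-array fits without single arrays were added after seeing the data. The scripts were tested on simulated data. Figures were drawn with matplotlib 3.10.9.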

Additional observations from a re-analysis of the deposited data

How the results depend on the processing

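No probe set among the 379 changed sign under any alternative. The smallest difference among them was 1.35 on the log2 scale, and the groups overlapped in none. Their signs could thus hardly change on the same arrays, and this is no independent support. The number of calls moved widely. The settings are given with their calls in all, then those higher in ABA and higher in pH, then those among the listed genes, which were 379, 195, 184 and 12 in the report. The SAM-type test gave 20, 17, 3 and 1. The unadjusted p with the same fold gave 3282, 1607, 1675 and 130. The 8-array fit gave 2191, 1019, 1172 and 92, and the fit to all 17 arrays 966, 477, 489 and 41. Without rescaling there were 170, 95, 75 and 7 calls, and with median centring 172, 111, 61 and 5, which raised the share higher in ABA from 51.5% to 64.5%. The offset of 32 gave 1572, 702, 870 and 74, the filter on the weakest 25% of signals 1898, 870, 1028 and 85, and the variance trend 1890, 890, 1000 and 90. Without the probe sets that match several transcripts, 131, 66, 65 and 4 were left of 12727 tested. Dropping the fold limit left all 379 calls as they were. The cause of these differences was not tested. Fewer probe sets were tested without those that match several transcripts (12727) and with the filter (18022). The part of this smaller number in the change of calls was not separated.

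Leaving out 1 array gave 1 call in all, 1 higher in ABA, 0 higher in pH and 0 among the listed genes for each of the 5 arrays. Leaving out single arrays from the 8-array fit was an alternative added after seeing the data. Leaving out ABA replicates 1, 2 and 3 and pH replicates 1 and 2 in turn there gave 1245, 1597, 2375, 1762 and 1226 calls in all. Of these 560, 689, 1081, 996 and 700 were higher in ABA, 685, 908, 1294, 766 and 526 were higher in pH, and 45, 54, 90, 63 and 31 were among the listed genes. Whether the replicate numbers pair the arrays could not be decided. Deviations from the group means correlated at -0.02 and -0.03 for arrays of the same number. With 2 pH arrays these deviations mirror each other, so arrays of different numbers gave 0.02 and 0.03 by construction. With the replicate number as a block, limma made 0 calls (0 higher in ABA, 0 higher in pH), the lowest adjusted p was 0.208, and 4676 probe sets had an unadjusted p of 0.05 or less. Signals near background limit what the weakest probe sets can show.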
